A study of Mus musculus with 2 samples.

Results

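*Pi16*, *Dpp4*, *Clec3b*, *Ly6a*, *Cd34*, *Dpt*, *Islr*, *Pamr1*, *Cercam* and *Qpct* are 10 of the 33696 genes counted in single cells of amputated mouse digits, and they are described here in the fibroblast-like cells of the wound. All 10 were found by symbol in both libraries, each with 1 entry. They were chosen as genes of resting connective tissue fibroblasts with the measured difference between the libraries in view, and 6 of them (*Dpp4*, *Clec3b*, *Islr*, *Pamr1*, *Cercam* and *Qpct*) also stand in the study's own list of genes lower in fibroblasts after FGF8. The direction of those genes between the libraries is therefore a description of what they were selected on and supports nothing further.

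The cells came from ICR mice, male and female pooled, whose hindlimb digits 2 and 4 were amputated through the middle phalanx (P2) at postnatal day 3, a level at which digits do not regenerate on their own. A bead carrying FGF8 (500 ng/µl) or, in controls, 0.1% BSA was implanted at postnatal day 7, after wound closure, and the tissue distal to the P2 stump was collected 24 h later, at postnatal day 8, with the epithelium removed. Each group is 1 library of 20 digits from 5 mice, pooled before capture, and the FGF8 pool likely includes digits that would not have regenerated. With 1 library for each group no test was possible, and treatment, pool of animals, sex makeup and library cannot be told apart.

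Fibroblasts of the *Pi16* and *Dpp4* type lie in the adventitia of vessels and in fascia in many mouse tissues and are commonly described as a quiescent reserve from which more specialised fibroblasts can arise. They are recognised by surface proteins, among them DPP4 (CD26), a peptidase that trims the ends of small peptides, LY6A (SCA-1) and the sialomucin CD34, and by the secreted protein PI16. On activation after injury, fibroblasts typically lose such genes while those for matrix and contraction are raised.

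The promoters of *Pi16* and *Dpp4*, the pair by which the group is known, are shown because their levels moved apart between the libraries. RefSeq (GRCm38.p6) gave 300 bases, from 250 before to 50 after the gene start, for 6 of the 10 genes, and *Clec3b*, *Ly6a*, *Pamr1* and *Qpct* were not matched. Capitals mark TATAAA, the only match found in these sequences to 3 motifs searched on both strands, which were TATAAA, the AP-1 motif TGANTCA and the ETS motif CCGGAA. No match overlapped another.
Pi16, chr17:29318632-29318931, plus strand: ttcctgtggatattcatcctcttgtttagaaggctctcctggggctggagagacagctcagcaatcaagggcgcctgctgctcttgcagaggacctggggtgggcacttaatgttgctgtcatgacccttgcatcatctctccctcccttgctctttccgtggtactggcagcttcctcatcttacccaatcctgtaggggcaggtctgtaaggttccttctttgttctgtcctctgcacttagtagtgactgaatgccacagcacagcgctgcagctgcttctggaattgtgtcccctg
Dpp4, chr2:62412182-62412481, minus strand: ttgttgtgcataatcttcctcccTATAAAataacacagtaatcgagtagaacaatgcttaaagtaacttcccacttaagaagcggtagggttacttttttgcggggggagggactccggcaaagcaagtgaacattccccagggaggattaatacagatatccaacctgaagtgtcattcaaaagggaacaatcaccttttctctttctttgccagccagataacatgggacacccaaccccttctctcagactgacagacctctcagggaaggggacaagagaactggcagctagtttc
The match in *Dpp4* began 227 bases before the gene start. *Dpt* held TATAAA as well, starting 12 bases after the gene start, and the promoters of *Pi16*, *Cd34*, *Islr* and *Cercam* held none of the 3 motifs. Among 27025 promoters of the same length, 14.2% held TATAAA, 7.93% the AP-1 motif and 15.2% the ETS motif. The *Pi16* promoter had 3 CpG dinucleotides, that of *Dpp4* 4 and that of *Cercam* 21, against a median of 7 over all promoters.

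On GRCm39, the build of the counts, *Pi16* lies on chromosome 17 (29536654–29549567, plus strand) and *Dpp4* on chromosome 2 (62159798–62242576, minus strand). *Qpct* shares chromosome 17 with *Pi16*, and *Pamr1* and *Cercam* share chromosome 2 with *Dpp4*, at distances of many megabases. All 10 genes are protein coding. *Ly6a* has close relatives in the *Ly6* family, and how reads were divided among them was not tested.

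Each UMI counts 1 captured transcript end, so levels do not scale with transcript length. The BSA library held 3703 barcodes and 67739460 UMIs and the FGF8 library 7249 barcodes and 124889213 UMIs, and 6 barcodes occurred in both. Of 3252 BSA and 6715 FGF8 cells kept, 1714 (52.7%) and 3326 (49.5%) fell in the fibroblast-like cluster, with medians of 20048 and 18606 UMIs per cell. All 9 fibroblast markers were detected in that cluster, and tenocyte, osteoblast and chondrocyte markers were present in it at lower levels (578 and 686, 217 and 214, and 242 and 209 counts per 1000000 UMIs, or CPM, in the BSA and FGF8 libraries, summed over each list). Summed macrophage markers gave 14.1 and 15.2 CPM there and endothelial markers 14.9 and 19.1. Erythroid markers gave 1538 and 1432 CPM there, mural markers 303 and 279 and keratinocyte markers 117 and 123. Cells with an *Xist* and no Y-linked UMI made up 80.1% of the fibroblast-like cells that could be assigned a sex in the BSA library and 24.3% in the FGF8 library, so ratios within each sex are given for the main results.

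In fibroblast-like cells, the CPM of 9 of the 10 genes was lower after FGF8 than after BSA, and that of *Ly6a* was higher. The surface peptidase gene *Dpp4* had the lowest ratio, with 21.7 CPM (20.2–23.3, 95% exact Poisson interval) in the BSA library and 6.58 CPM (5.99–7.21) in the FGF8 library. This is a log2 ratio of FGF8 over BSA of -1.72 (-1.89 to -1.55), from 770 and 460 UMIs. Intervals here and below cover counting error alone, not differences between animals.

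*Pi16*, which encodes a secreted peptidase inhibitor, stood well apart from *Dpp4*. It had 33.0 CPM (31.1–34.9) in the BSA library and 26.8 CPM (25.6–28.1) in the FGF8 library, a log2 ratio of -0.30 (-0.40 to -0.19). This small difference depended on how cells were weighted and on their sex. It was 0.01 when each cell was thinned to 5000 UMIs, -0.45 (-0.64 to -0.27) in female-called cells and 0.19 (-0.05 to 0.44) in male-called cells, whereas *Dpp4* stayed at -1.63 and -2.04 in the same cells.

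The other surface proteins differed in direction. *Cd34* went from 164 CPM in the BSA library to 115 CPM in the FGF8 library (log2 ratio -0.51, -0.56 to -0.47; -0.44 for females and -0.59 for males). *Ly6a* went from 379 to 438 CPM (0.21, 0.18 to 0.24) and was among the most abundant of the set in both libraries. Its ratio was 0.56 (0.52 to 0.61) in female-called and -0.15 (-0.20 to -0.09) in male-called cells, so the higher level did not hold in both sexes.

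Among the other secreted and matrix protein genes, *Dpt* was nearer to *Cd34* in its ratio and *Clec3b* and *Islr* lay below -1. *Clec3b*, which encodes the plasminogen-binding lectin tetranectin, was the most abundant of them in the BSA library at 395 CPM and had 139.6 CPM in the FGF8 library (-1.50, -1.54 to -1.46). *Dpt*, for the matrix protein dermatopontin, had 321 and 205 CPM (-0.65, -0.69 to -0.61). *Islr*, for an immunoglobulin-domain protein also called meflin, had 108 and 47.4 CPM (-1.19, -1.26 to -1.12). For females and males the ratios were -1.32 and -1.30 for *Clec3b*, -0.76 and -0.74 for *Dpt* and -1.15 and -1.09 for *Islr*. Those of *Clec3b* and *Dpt* lay outside the pooled intervals, and the pooled values also hold cells with no sex call.

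*Pamr1*, for a secreted protein with a peptidase-like domain, had 60.1 CPM in the BSA and 21.8 CPM in the FGF8 library (-1.46, -1.56 to -1.36). *Qpct*, for the glutaminyl cyclase that modifies the ends of secreted peptides, had 102 and 40.7 CPM (-1.32, -1.39 to -1.25). *Cercam*, which is related to collagen glycosyltransferases, had 48.6 and 22.2 CPM (-1.13, -1.23 to -1.03). All of these were lower in the FGF8 library in both sexes. For females and males the ratios were -1.78 and -1.40 for *Pamr1*, -1.10 and -1.64 for *Qpct* and -1.23 and -1.09 for *Cercam*.

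In all, 6 of the 10 genes had a log2 ratio of -1 or lower, where 5.06% of 20053 genes with at least 10 UMIs did, and none had a ratio of 1 or higher, where 6.62% of all genes did. The median over the 10 was -1.16, beside -0.07 over all genes. Because the genes were selected with this contrast known, nothing is read from these counts. The number at -1 or lower was 3 when each cell was thinned to 5000 UMIs and 3 with a stricter cell filter, and 6 in each sex alone, where 7.68% of all genes were for females and 6.44% for males. The share of all genes was not taken after thinning or with the stricter filter.

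**Figure D1:**
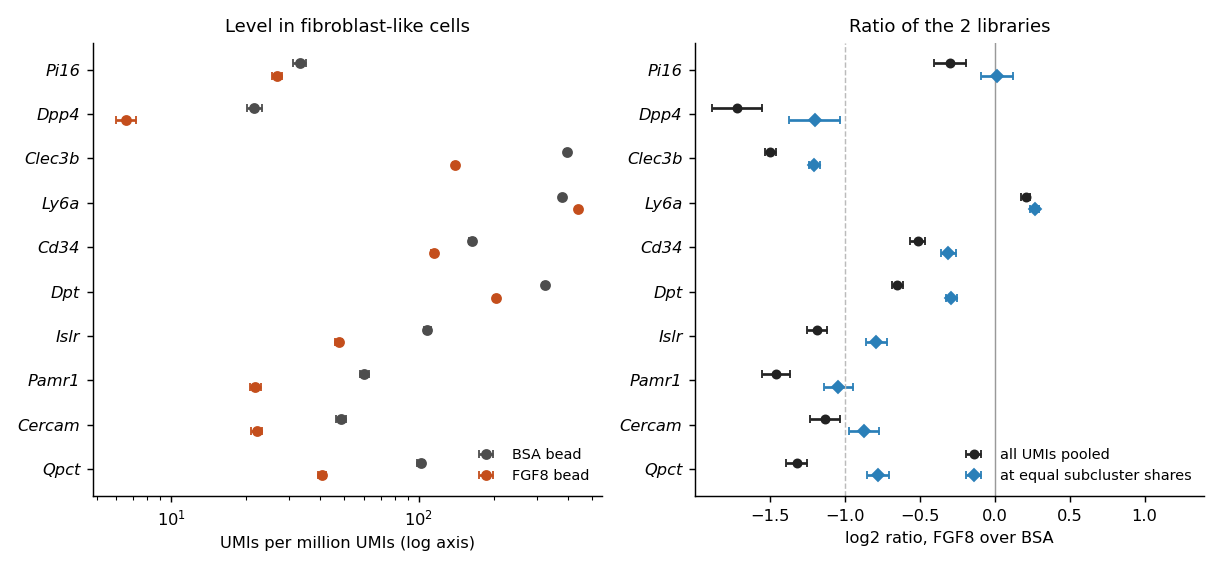
Left, counts per 1000000 UMIs (CPM, log axis) of each gene in fibroblast-like cells of the BSA library (gray) and the FGF8 library (orange), with exact Poisson 95% intervals. Right, the log2 ratio of FGF8 over BSA with all UMIs pooled (black circles) and at equal subcluster shares (blue diamonds), with 95% intervals for counting error and a dashed line at -1; *Dpp4* lies farthest left at -1.72 pooled, *Ly6a* alone lies right of 0 pooled, and *Pi16* moves from -0.30 to 0.02.

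Fibroblast-like cells fell into 6 subclusters when re-clustered without the 10 genes, without the genes of the study's lists of higher and lower genes and without X- and Y-linked genes, so the genes described here did not draw the subclusters. The subclusters are named by number and leading genes. Subcluster 0 was led by *Chodl* and *Fgfr4*, subcluster 1 by *Prg4* and *Il11* together with replication histone genes, subcluster 2 by *Fmod* and *Kera*, subcluster 3 by *Lpl* and *Ebf2*, subcluster 4 by *Lars2* and *Camk1d* with medians of only 2514.5 and 2516 UMIs per cell, and subcluster 5 by *Adgrb3* and *Ednrb*. Subcluster 1 held 14.6% of the fibroblast-like cells in the BSA library and 29.0% in the FGF8 library, and 22.2% and 48.2% of their UMIs. Subcluster 0 held 36.5% and 26.8% of the cells.

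*Pi16* was highest in subcluster 3 and had nearly the same level there in both libraries, 106.9 CPM in BSA and 107 CPM in FGF8 (log2 ratio 0.00, -0.14 to 0.14). This subcluster, whose leading genes include the lipase gene *Lpl*, *Ebf2* and the Notch-family ligand gene *Dlk1*, held 56.1% of all fibroblast-like *Pi16* UMIs in both libraries. Within its female-called cells the ratio was -0.34 (-0.61 to -0.07) and within its male-called cells 0.40 (0.11 to 0.70), so the equal levels did not hold within either sex. In subcluster 0 *Pi16* had 15.1 and 22.1 CPM (0.55, 0.28 to 0.83; 0.47 for females and 1.65 for males, the last from 19 and 214 UMIs). In subcluster 2 it had 28.9 and 26.3 CPM, and in subcluster 1 it had 7.10 and 6.86 CPM. No *Pi16* UMI was found in subcluster 5, whose 40 and 83 cells allow up to 3.7 and 2.54 CPM at a floor of 3 UMIs.

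*Dpp4* followed another pattern. It had 46.4 CPM in subcluster 3 of the BSA library and 13.8 CPM in subcluster 3 of the FGF8 library (-1.74, -2.05 to -1.44), where *Pi16* was level with the sexes pooled. The *Dpp4* ratio there was -1.21 for females and -1.60 for males. Its largest share of UMIs lay in subcluster 0, 54.7% in BSA and 52.0% in FGF8, where it had 36.4 and 18.5 CPM (-0.98, -1.22 to -0.75; -1.03 for females and -1.24 for males). In subclusters 1 and 2 it stayed at or below 2.45 CPM in either library.

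*Clec3b* was highest in subcluster 3 as well, with 1012 CPM in BSA and 504 CPM in FGF8 (-1.005, -1.06 to -0.95). In subcluster 1 it had 197 and 27.3 CPM (-2.85, -2.97 to -2.73), the lowest ratio of any of the 10 genes in any subcluster, and -3.69 for females and -2.53 for males. In subcluster 3 its ratio was -0.78 for females and -0.76 for males, both nearer to 0 than the pooled value, which also holds cells with no sex call. *Ly6a* also peaked in subcluster 3, at 1079 and 1082 CPM (0.00, -0.04 to 0.05), and was higher in the FGF8 library in the other 5 subclusters, by log2 ratios of 0.31 to 0.79 with the sexes pooled. In subcluster 3 the *Ly6a* ratio was 0.26 (0.19 to 0.33) for females and -0.23 (-0.30 to -0.14) for males, and in subcluster 1 it was 0.70 (0.61 to 0.79) for females and -0.22 (-0.34 to -0.10) for males.

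**Figure D2:**
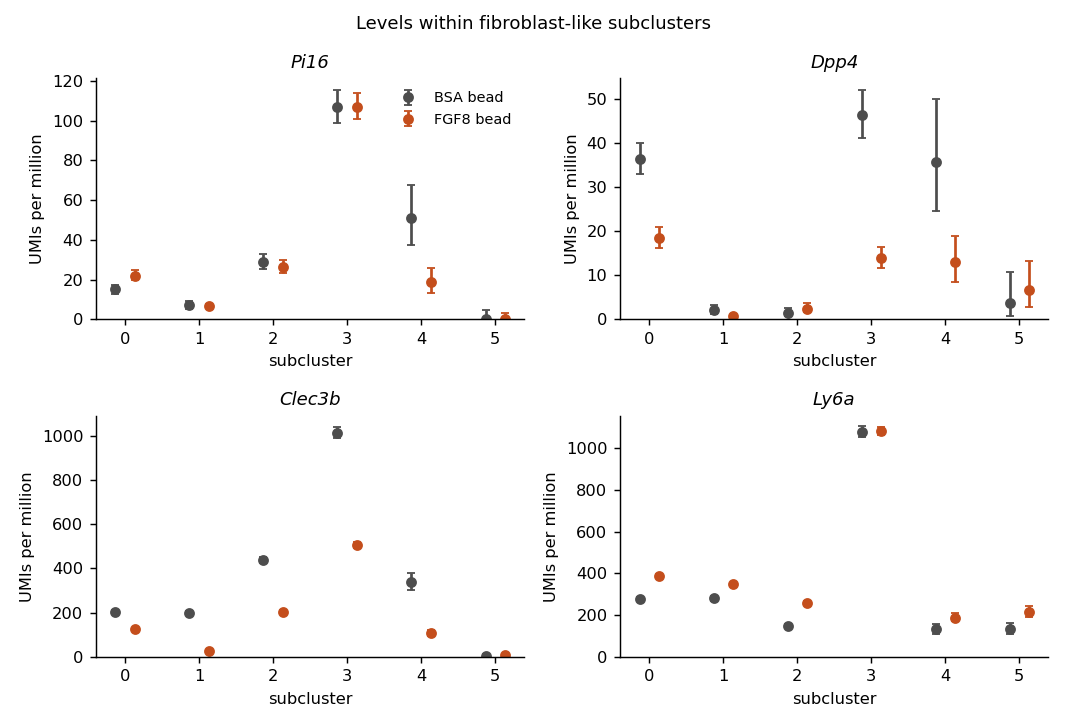
Counts per 1000000 UMIs of *Pi16*, *Dpp4*, *Clec3b* and *Ly6a* in each fibroblast-like subcluster of the BSA (gray) and FGF8 (orange) libraries, with exact Poisson 95% intervals. In subcluster 3 the points of *Pi16* (106.9 and 107) and of *Ly6a* (1079 and 1082) coincide, while those of *Dpp4* (46.4 and 13.8) and *Clec3b* (1012 and 504) lie apart.

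*Cd34* and *Dpt* were highest in subclusters 3 and 0. *Cd34* had 329 and 242 CPM in subcluster 3 and 194 and 148 CPM in subcluster 0, and in subcluster 1 it had the same level in both libraries, 77.9 and 78.0 CPM. *Dpt* had 512 and 415 CPM in subcluster 3 and 457 and 426 CPM in subcluster 0. *Qpct* was largely a gene of subcluster 0, which held 68.8% of its UMIs in BSA and 62.7% in FGF8 at 215 and 138 CPM.

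*Islr*, *Pamr1* and *Cercam* were found across most subclusters. *Islr* was highest in the FGF8 library in subcluster 5 (105.7 CPM) and *Pamr1* highest in the BSA library in subcluster 4 (135 CPM). *Islr* had 120.3 and 95.1 CPM in subcluster 0, 134 and 67.1 CPM in subcluster 2 and 125 and 82.0 CPM in subcluster 3. In subcluster 1 all 3 were far lower in the FGF8 library, with *Islr* at 51.5 and 11.8 CPM (-2.12), *Pamr1* at 29.3 and 4.75 CPM (-2.62) and *Cercam* at 35.3 and 11.3 CPM (-1.64).

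The 10 genes thus differed by subcluster in how far apart the libraries lay. In subcluster 1, 6 of the 10 had a ratio of -1 or lower, where 9.92% of the genes with at least 10 UMIs in it did, and the median over the 10 was -1.54. In subcluster 0 none did, where 2.21% of genes did, with a median of -0.42. In subclusters 2 and 3 there were 3 each, *Clec3b*, *Pamr1* and *Islr* in the first and *Dpp4*, *Clec3b* and *Pamr1* in the second, where 3.92% and 3.42% of genes were. In the cells of subcluster 4, which have few UMIs, 7 of the 10 were at -1 or lower, where 4.61% of genes were, and in subcluster 5 none of the 9 with at least 10 UMIs was, where 4.54% of genes were.

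**Figure D3:**
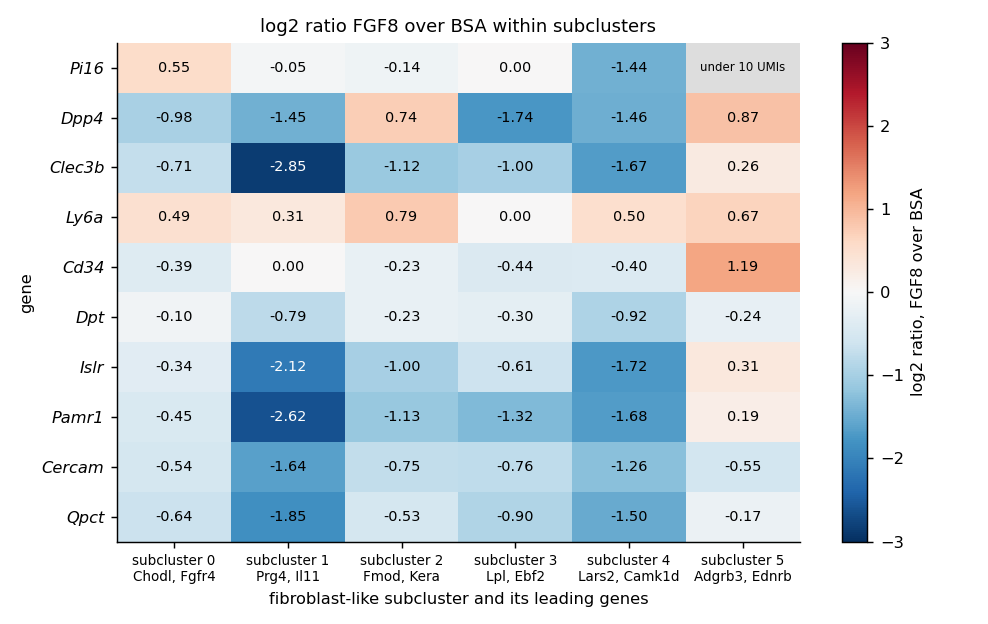
The log2 ratio of FGF8 over BSA for each gene (lines of the map) within each fibroblast-like subcluster (columns, with leading genes), blue where the FGF8 library was lower and red where it was higher; gray marks under 10 UMIs. Subcluster 1 holds the lowest values, down to -2.85 for *Clec3b*, and *Ly6a* is at 0.00 or above in every subcluster with the sexes pooled.

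With each subcluster given the same share of UMIs in both libraries, the ratios moved toward 0 for 9 genes and away from it for *Ly6a*, which went from 0.21 to 0.27. *Pi16* came to 0.02 (-0.09 to 0.12), with 29.97 CPM in BSA and 30.3 CPM in FGF8. *Dpp4* came to -1.20 (-1.37 to -1.03) and *Clec3b* to -1.20 (-1.24 to -1.17), and *Pamr1* to -1.04 (-1.14 to -0.95). *Qpct* moved by the largest amount, from -1.32 to -0.78. The median over the 10 was -0.78, with *Pi16* and *Ly6a* above 0 and *Dpp4*, *Clec3b* and *Pamr1* at -1 or lower. How many of all genes lie past these limits at equal shares was not counted. The genes were selected with this contrast known, so nothing is read from how many of them do.

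Detection in single cells was compared after each fibroblast-like cell was thinned to 5000 UMIs, which left 1498 BSA and 2936 FGF8 cells and dropped 216 and 390 cells with fewer. *Pi16* was found in 8.41% of BSA cells (7.05–9.93, exact binomial 95% interval) and 8.48% of FGF8 cells (7.498–9.55). *Dpp4* was found in 8.41% (7.05–9.93) and 3.92% (3.24–4.68). Without thinning the shares were 17.2% and 14.7% for *Pi16* and 16.9% and 8.33% for *Dpp4*.

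*Clec3b* was detected in 47.0% of BSA and 25.8% of FGF8 cells, *Dpt* in 62.8% and 50.7%, *Cd34* in 45.2% and 37.9%, and *Ly6a* in 40.1% and 51.8%. *Islr* was detected in 40.5% and 24.8%, *Qpct* in 32.2% and 19.0%, *Cercam* in 21.3% and 11.6% and *Pamr1* in 20.6% and 9.74%. For 8 of the 10 genes the share was thus lower in the FGF8 library, for *Ly6a* it was higher, and for *Pi16* the intervals overlapped almost fully. As a measure of background, erythroid-like cells thinned to 2000 UMIs had *Clec3b* in 3.90% of BSA and 1.46% of FGF8 cells, against 33.4% and 17.3% of fibroblast-like cells at the same depth. *Pi16* was found in 0.418% of the FGF8 erythroid-like cells, and *Dpp4* was found in none of 77 BSA and 479 FGF8 erythroid-like cells, against 4.00% and 1.80% of fibroblast-like cells. *Ly6a* was found in 3.90% and 4.802% of them, against 27.6% and 35.9% of fibroblast-like cells. Before thinning, erythroid-like cells had medians of 18691 and 6983 UMIs.

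At 5000 UMIs the median cell had 3 of the 10 genes in the BSA library and 2 in the FGF8 library. Of BSA cells, 61.8% (926 of 1498, 59.3–64.3) had at least 3 of the genes, and of FGF8 cells 43.3% (1270 of 2936, 41.5–45.1). None of the genes was found in 5.67% of BSA and 12.5% of FGF8 cells. The share with at least 3 was highest in subcluster 3, at 91.5% and 79.2%, followed by subcluster 0 at 70.3% and 60.7%. It was 34.9% and 17.1% in subcluster 1.

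**Figure D4:**
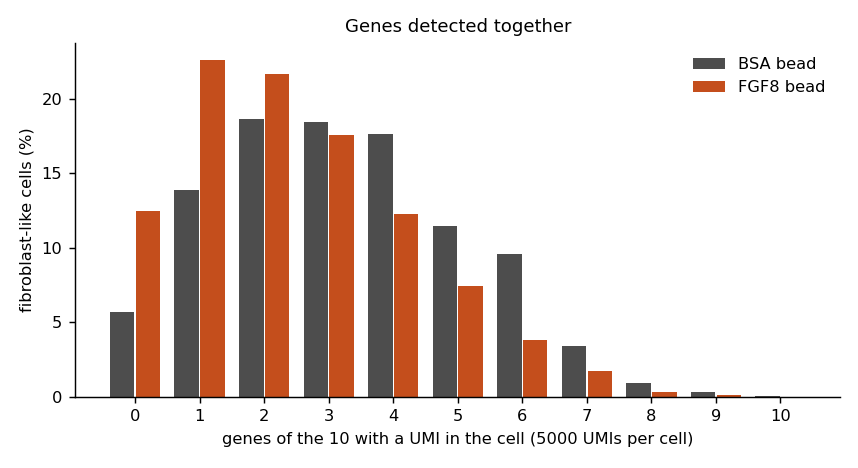
Share of fibroblast-like cells (%) by the number of the 10 genes with a UMI, after thinning to 5000 UMIs per cell, in the BSA (gray, 1498 cells) and FGF8 (orange, 2936 cells) libraries. The FGF8 bars are taller at 0, 1 and 2 genes and the BSA bars from 3 genes up.

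Over all fibroblast-like cells, most pairs of the genes were found in the same cells more often than their single shares would give. Of the 45 pairs, 40 in the BSA library and 41 in the FGF8 library had a ratio of observed to expected cells above 1, with a median of 1.19 and 1.43. Within a subcluster the ratios lay closer to 1, with medians of 1.04 and 1.14 in subcluster 3 and 1.08 and 1.12 in subcluster 0. There 36 and 41 of the 45 pairs were above 1 in subcluster 3, and 36 and 33 in subcluster 0. Pairs of other genes with like detection were not counted, so these numbers are not read as a trait of the set. *Pi16* and *Dpp4* were found together in 26 BSA cells where 10.6 were expected (ratio 2.45, 1.61–3.58) and in 20 FGF8 cells where 9.75 were expected (2.05, 1.25–3.16). Put the other way, *Dpp4* was found in 20.6% (13.9–28.8) of 126 *Pi16*-positive BSA cells and in 8.03% (4.98–12.1) of 249 *Pi16*-positive FGF8 cells, beside 7.29% and 3.54% of the cells without *Pi16*. Within subcluster 3 the shares were 31.1% (19 of 61) and 10.4% (13 of 125) of the *Pi16*-positive cells, beside 8.60% and 6.02% of the others. The ratio of observed to expected cells was 2.20 (1.34–3.36) in BSA and 1.44 (0.77–2.44) in FGF8 in subcluster 3. In subcluster 0, which holds most *Dpp4* UMIs, it was 1.24 (0.46–2.69) and 1.16 (0.38–2.70). Of these 4 groups, the interval lay above 1 in the BSA cells of subcluster 3 alone. The intervals take the expected number as fixed, and those of the 2 libraries overlapped in both subclusters. No difference between the libraries is read from them.

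*Clec3b* was found in 77.0% (68.6–84.0) of *Pi16*-positive BSA cells and in 58.2% (51.8–64.4) of those of the FGF8 library, beside 44.2% and 22.8% of *Pi16*-negative cells. The pair with the highest ratio in the FGF8 library was *Dpp4* and *Pamr1*, in 35 cells (3.12, 2.18–4.34), and it stood at 2.05 (1.54–2.66) in the BSA library. *Pi16* and *Qpct* had the lowest ratio in the BSA library at 0.71 (0.48–1.02), also within subcluster 3 (0.75) and subcluster 0 (0.60), and were at 1.04 (0.77–1.37) in the FGF8 library. *Ly6a* and *Qpct* had the lowest ratio in the FGF8 library at 0.84 (0.74–0.94).

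Detection of *Prg4*, the lubricin gene of joint lining that led subcluster 1, and of cycling genes was set beside that of *Pi16* and *Dpp4*. In the BSA library *Prg4* was found in 0.79% (0.02–4.34) of *Pi16*-positive and 10.4% of *Pi16*-negative cells, and in the FGF8 library in 21.7% (16.7–27.3) and 35.7%. *Mki67*, a gene of cycling cells, was found in 5.56% (2.26–11.1) and 10.3% of the same BSA cells and in 16.9% (12.4–22.1) and 26.0% of the same FGF8 cells. For *Dpp4*-positive cells the *Mki67* shares were 3.17% (0.87–7.93) in BSA and 7.83% (3.64–14.3) in FGF8, beside 10.5% and 25.9% of *Dpp4*-negative cells. Within subcluster 3 the direction was not the same throughout. *Prg4* was found there in 16.8% (10.7–24.5) of *Pi16*-positive and 11.1% of *Pi16*-negative FGF8 cells, and *Mki67* in 8.197% (2.72–18.1) and 6.99% of BSA cells and 11.2% (6.26–18.1) and 18.7% of FGF8 cells. Over all FGF8 fibroblast-like cells *Spp1*, the osteopontin gene, was found in 27.7% of *Pi16*-positive and 45.3% of *Pi16*-negative cells, and within subcluster 3 in 26.4% and 27.1%. *Mmp3*, for a matrix-degrading protease, was found in 22.1% and 28.8% of all and in 18.4% and 23.8% of subcluster 3. Over all fibroblast-like cells *Mki67* was found in 27.9% (25.7–30.2) of *Ly6a*-positive and 22.4% of *Ly6a*-negative FGF8 cells, and in 9.15% and 10.4% of those of the BSA library.

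The genes most alike to *Pi16* were sought in 2 ways, with the 10 genes set aside in the first. Over 5877 genes found in at least 10% of *Pi16*-positive cells, the 10 with the highest level in *Pi16*-positive over *Pi16*-negative cells, ranked by the lower log2 ratio of the libraries, were *Dlk1*, *Col6a6*, *Tmeff2*, *Ace*, *Ebf2*, *Esr1*, *Adgrd1*, *Sfrp4*, *Pi15* and *Ly6c1*. *Dlk1*, which inhibits fat cell formation, had 890.5 and 187 CPM in *Pi16*-positive and negative BSA cells and 706 and 121 CPM in those of the FGF8 library. The angiotensin-converting enzyme gene *Ace* had 42.9 and 4.37 CPM and, in the FGF8 library, 31.3 and 7.44 CPM. On the same scale *Clec3b* stood at 1.60, *Dpp4* at 1.53 and *Ly6a* at 1.10, and *Qpct* at -0.60. Of the *Pi16*-positive cells, 61 of 126 in BSA and 125 of 249 in FGF8 lay in subcluster 3. *Dlk1*, *Tmeff2* and *Ebf2* are among the leading genes of that subcluster. The ranking thus also reflects subcluster 3 against the other cells, and it was not repeated within a subcluster.

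Over the 12 sums of subcluster by library, log2(CPM + 1) of *Pi16* followed most closely that of *AW551984*, *Agtr2*, *Cxcl12*, *Ltbr* and *Clec3b* among 12793 genes, with Pearson's r of 0.99, 0.97, 0.96, 0.96 and 0.94. *Dpp4* followed *Peli2*, *Kifap3*, *Abca9*, *Celf2* and *Gm16083*, with r of 0.95 to 0.96. The r between *Pi16* and *Dpp4* was 0.46, that between *Pi16* and *Cd34* 0.93 and that between *Dpp4* and *Qpct* 0.83. The 12 points share 2 libraries and differ in depth, so these are descriptions of likeness.

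Outside the fibroblast-like cells, several of the genes were found in other cell types. *Pi16* was higher per UMI in neutrophil-like cells than in fibroblast-like cells, with 85.3 CPM (63.9–111.5) in BSA and 63.9 CPM (52.3–77.2) in FGF8, from 53 and 106 UMIs. At 2000 UMIs per cell, it was found in 19.6% of 148 BSA and 12.4% of 402 FGF8 neutrophil-like cells, against 4.92% and 4.07% of fibroblast-like cells. Neutrophil markers summed to 15.8 CPM in fibroblast-like cells of the BSA library and 38.9 CPM in those of the FGF8 library, with 1 of 6 markers at 0 in each, and their part in the *Pi16* level was not tested. *Clec3b*, far above *Pi16* in fibroblast-like cells, had 17.7 and 27.7 CPM in neutrophil-like cells, and no *Dpp4* UMI was found in those of the BSA library, which allows up to 4.83 CPM at a floor of 3 UMIs.

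*Dpp4* was found in macrophage-like cells at 17.7 CPM (14.5–21.5) in BSA and 13.1 CPM (10.9–15.5) in FGF8, so that in the FGF8 library its level there was above that in fibroblast-like cells. A cluster with mixed markers had 15.3 and 13.4 CPM. *Ly6a* and *Cd34*, both also known from vessel lining, had 430 and 383 CPM in BSA and 649 and 570 CPM in FGF8 in a cluster led by *Gpihbp1*, *Emcn* and *Cldn5*. *Ly6a* was also found in macrophage-like cells, at 293 and 176 CPM. With the sexes pooled, its level was higher in the FGF8 library in mural-like cells (16.6 and 68.0 CPM, log2 ratio 2.04) and neutrophil-like cells (30.6 and 74.1 CPM, 1.28). The same held in erythroid-like cells (13.1 and 44.3 CPM, 1.76), which serve above as a measure of background. All of these levels were far below the 379 and 438 CPM of fibroblast-like cells. Whether they reflect spillover was not tested, and ratios within each sex are not given for these clusters.

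*Qpct* was higher in Schwann-like cells, 163 CPM in BSA and 128 CPM in FGF8, than in fibroblast-like cells, and stood at 72.2 and 27.3 CPM in mural-like cells. *Islr* was highest in chondrocyte-like cells, with 275 and 123 CPM (log2 ratio -1.16, -1.36 to -0.97), a ratio close to the -1.19 of fibroblast-like cells. *Clec3b*, *Dpt*, *Pamr1* and *Cercam* were highest in fibroblast-like cells in both libraries.

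**Figure D5:**
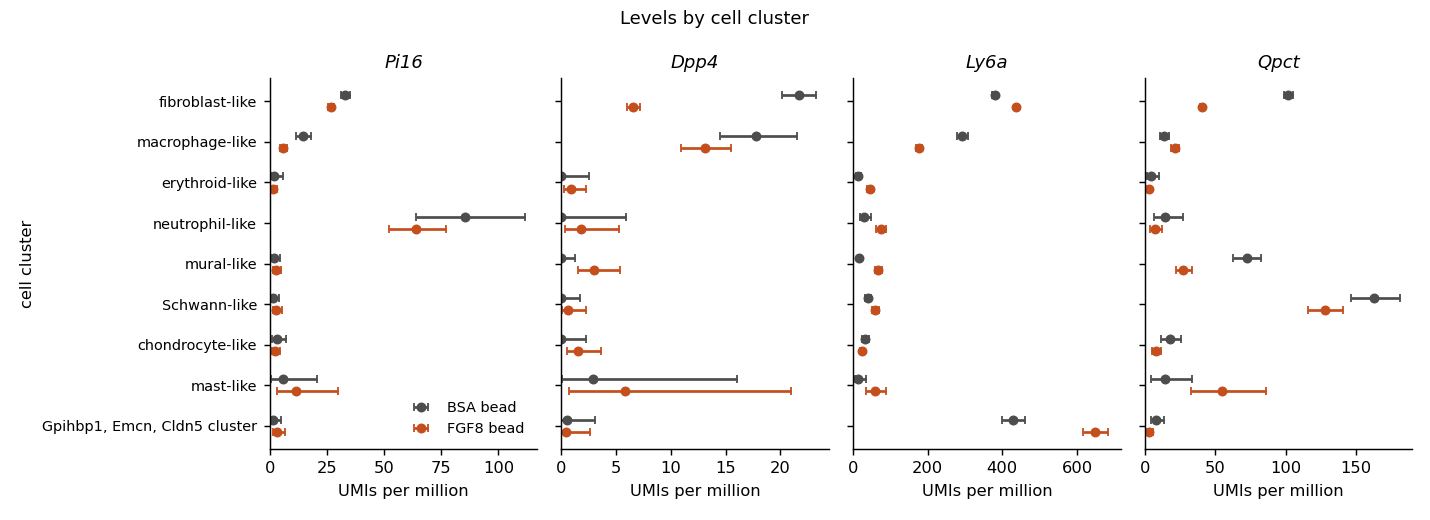
Counts per 1000000 UMIs of *Pi16*, *Dpp4*, *Ly6a* and *Qpct* in each named cell cluster and in a cluster led by *Gpihbp1*, *Emcn* and *Cldn5*, in the BSA (gray) and FGF8 (orange) libraries, with exact Poisson 95% intervals. *Pi16* is highest in neutrophil-like cells (85.3 and 63.9), *Ly6a* in the *Gpihbp1* cluster (430 and 649) and *Qpct* in Schwann-like cells (163 and 128).

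Of 35 other genes known from resting, adventitial or fascia fibroblasts, 26 (74.3%) had a log2 ratio below 0 in fibroblast-like cells, as did 55.9% of all genes, with a median of -0.51 beside -0.07 for all genes. At -1 or lower stood 4 of the 35, where 5.06% of all genes did, and 4 stood at 1 or higher, where 6.62% did. In male-called cells 8 stood at -1 or lower, where 6.44% of all genes did. The lowest with at least 100 UMIs were *Abca8a*, a lipid transporter gene (18.4 and 6.49 CPM, -1.50), *Smpd3*, a sphingomyelinase gene (5.32 and 2.05 CPM, -1.38) and *Efhd1* (2.28 and 0.92 CPM, -1.32). The highest were *Pcolce2*, for an enhancer of procollagen processing (15.9 and 38.7 CPM, 1.28), *Has1*, a hyaluronan synthase gene (30.4 and 72.3 CPM, 1.25) and *Procr*, for the protein C receptor (4.45 and 9.66 CPM, 1.12). In subcluster 1 the median of the 35 was -0.76, beside -0.07 for all genes, with 13 at -1 or lower, where 9.92% of all genes were. In subclusters 0, 2 and 3 there were 2 each, where 2.21%, 3.92% and 3.42% of all genes were. Subcluster 4 had 3 and subcluster 5 had 1, where 4.61% and 4.54% of all genes were.

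Of 16 genes known from activated fibroblasts, 12 (75%) were below 0, beside 55.9% of all genes, with a median of -0.37 beside -0.07. At -1 or lower stood 1 of the 16, where 5.06% of all genes did, and 2 stood at 1 or higher, where 6.62% did. The lowest were *Fap*, a surface peptidase gene related to *Dpp4* (82.4 and 38.4 CPM, -1.10), *Cthrc1* (1134 and 622 CPM, -0.87) and *Col5a1*, a fibrillar collagen gene (1498 and 874 CPM, -0.78). The highest were the cytokine gene *Il11* (3.58 and 42.3 CPM, 3.56), *Timp1*, for an inhibitor of metalloproteinases (481 and 2158 CPM, 2.17) and the transcription factor gene *Runx1* (111 and 171 CPM, 0.62). Both lists were drawn up with earlier results of these data known.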

How the data were processed

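Single-cell suspensions were captured with 10x 3' chemistry (version 3.1), and per the labels the authors made the deposited count matrices with Cell Ranger 9.0.0 on GRCm39; the values are UMI counts with no normalization. The notes name more than 1 mouse build, and the counts were joined to GRCm39 positions by gene identifier.

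Here, cells with 200 to 7500 genes and under 15% mitochondrial UMIs were kept, after the study's methods, and clustered with Seurat 5.3.0 (sctransform 0.4.2, R 4.3.3, 30 components, resolution 0.05, canonical correlation integration). Clusters were named from marker lists, and the fibroblast-like cluster was re-clustered at resolution 0.2. UMIs were summed per library, ratios taken as log2 of CPM, and intervals were exact Poisson, conditional or binomial at 95%, with a floor of 3 counts, and cover counting error only. A ratio of the sums weights each cell by its UMIs. Scrublet (scanpy 1.11.5) called no doublet at its own threshold, so it did not work here and doublets were not removed; taking out the highest scores (85 BSA and 361 FGF8 cells) was an alternative. Of the barcodes, 4 kept ones occurred in both libraries. TMM factors came from edgeR 4.0.16 and other steps from Python 3.11.15.

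The genes, lists and comparisons were chosen with earlier results of these data known. Named are the 10 genes, the 3 lowest and 3 highest of each list with at least 100 UMIs, *Prg4*, *Spp1*, *Mmp3*, *Mki67* and *Top2a* in co-detection, the 10 genes highest in *Pi16*-positive cells, the 5 most correlated with *Pi16* and with *Dpp4*, and genes leading each subcluster. *Dlk1*, *Il11*, *Lpl* and other leading genes were named after their values were seen.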

Additional observations from a re-analysis of the deposited data

Results flagged for a closer look

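Some of the 10 genes moved in opposite directions from BSA to FGF8 between the sexes, called in fibroblast-like cells from *Xist* and Y-linked UMIs, or between cell types. None of these differences between groups was tested, since each treatment is 1 library. *Pi16* had a log2 ratio of FGF8 over BSA of -0.45 for females and 0.19 for males, and *Ly6a* one of 0.56 for females and -0.15 for males. The BSA library was largely female-called and the FGF8 library largely male-called.

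*Ly6a*, higher in fibroblast-like cells of the FGF8 library, was lower in its macrophage-like cells (-0.73). The other values are of genes lower in fibroblast-like cells of the FGF8 library. *Cd34* was higher there in macrophage-like (1.97), neutrophil-like (1.39) and mural-like cells (1.25) and in the cluster led by *Gpihbp1*, *Emcn* and *Cldn5* (0.57). *Dpt* was higher in macrophage-like (0.80) and Schwann-like cells (1.03), *Islr* in macrophage-like cells (0.94), and *Qpct* in macrophage-like (0.64) and mast-like cells (1.94). Several rest on few UMIs, such as *Qpct* in mast-like cells with 5 in the BSA and 19 in the FGF8 library and *Cd34* in neutrophil-like cells with 7 and 49. Others lay near the level of erythroid-like cells, the measure of background above. *Dpt* had 11.3 and 19.7 CPM in macrophage-like and 9.88 and 20.1 CPM in Schwann-like cells, beside 15.1 and 19.7 CPM in erythroid-like cells. *Islr* had 3.48 and 6.68 CPM in macrophage-like cells, beside 17.9 and 4.32 CPM. *Cd34* had 3.31 and 13.0 CPM in macrophage-like and 5.19 and 12.3 CPM in mural-like cells, beside 19.3 and 8.87 CPM. Spillover between cells was not tested.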

How the results depend on the processing

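No paired analysis was possible because each group is 1 library. The median log2 ratio of the 10 genes, -1.16, was -0.89 with 500 to 6000 genes and under 10% mitochondrial UMIs, -1.08 with TMM factors, -0.93 with each cell weighted equally, -0.96 and -0.87 with cells thinned to 2000 and 5000 UMIs and -0.89 with cells called by marker lists. The stricter filter and thinning to 5000 each left 3 genes at -1 or lower, with no share of all genes taken in either. At equal subcluster shares the median, -0.78, was -0.69 with the stricter filter, -0.59 in female-called cells and -0.88 at subcluster resolution 0.1. *Pi16* turned to 0.19 in male-called cells, 0.016 when thinned to 2000 UMIs and 0.0083 when thinned to 5000, and *Ly6a* to -0.15 in male-called cells (-0.034 at equal shares).

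The share of cells with at least 3 genes was 49.5% in FGF8 with the stricter filter, 66.9% in BSA male-called cells, 32.0% and 19.4% when thinned to 2000 and 82.3% and 72.0% when not thinned. *Dpp4* in *Pi16*-positive cells was 12.7% in FGF8 female-called cells, 30.4% in BSA male-called cells, 3.45% in FGF8 cells thinned to 2000 and 29.8% and 16.1% when not thinned. The other resting genes had a median of -0.37 when thinned to 5000, and 8 at -1 or lower in male-called cells, where 6.44% of all genes were. The activated genes had medians of -0.30 when centred on all genes, -0.25 when thinned to 5000, -0.54 for females and -0.54 for males. Of these 16 genes, 0 were at -1 or lower when thinned, with no share of all genes taken. For females 2 were, where 7.68% of all genes were, and for males 0 were, where 6.44% were. The cause was not tested.

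Of the single-gene ratios over 14 alternatives, 62 stayed within their counting interval, 74 moved past it and 4 changed sign, while *Dpp4* ranged from -2.04 to -1.01 and *Clec3b* from -1.51 to -1.10. Weighting the sexes equally was chosen after seeing the data and gave -0.13 for *Pi16*. With 1 pool for each treatment, animals cannot be separated from treatment, and low counts limit *Dpp4* in subclusters 1, 2 and 5.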

Other observations

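Within each library the genes also differed between female-called and male-called fibroblast-like cells. *Pi16* had a log2 ratio of female over male of 0.54 (0.29 to 0.79) in the BSA library and -0.11 (-0.28 to 0.06) in the FGF8 library. *Ly6a* had -0.49 and 0.22, *Qpct* -0.23 and 0.30, *Pamr1* 0.06 and -0.31 and *Dpp4* -0.43 and -0.03 in the BSA and FGF8 libraries.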
